A study of Homo sapiens with 6 samples.

Results

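The genes described here encode respiratory complexes II to V of mitochondria. They were taken from the deposited expression table by symbol: every symbol that starts with SDHA, SDHB, SDHC, SDHD, UQCR, COX followed by a digit, or ATP5. This gave 62 of 19223 symbols, and each symbol stands for its transcript of highest mean value. Of the 62, 45 encode subunits and 17 encode assembly factors, regulators or relatives that share the prefix. RNA was measured in LoVo cells, an established human colon adenocarcinoma line. The 3 Control libraries came from cultures given vehicle and the 3 DCC-2036 libraries from cultures given 2.5 μM DCC-2036 (rebastinib), a kinase inhibitor. Both groups were labelled 48 h, whereas a figure legend of the paper names a shorter exposure. Nothing in the labels says whether the replicates were separate cultures, so the p-values measure only the spread between these libraries, which may be technical.

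The values are a normalized signal per transcript, and the reads behind each are unknown. Totals of all values were 38997229, 39956227 and 40587145 in Control replicates 1 to 3, and 43279603, 45957597 and 48023306 in DCC-2036 replicates 1 to 3. Each DCC-2036 total was therefore above each Control total. The same 5697 transcripts were at 0 in all 3 DCC-2036 libraries, whereas Control libraries had 7844, 7940 and 8078 at 0 and shared 5929. Values above 0 but under 0.5 occurred for 2061, 2354 and 2277 transcripts of the DCC-2036 libraries and for 0 of the Control libraries, so values near 0 cannot be compared between the groups. The DCC-2036 columns thus differ in form from the Control columns, and their values may not be independent of one another. What this means for the SE, the p-values, the counts of groups without overlap and the fits with a library left out is not known. Markers fixed for colon epithelium gave a mixed picture of the label. The 9 of them summed to 81126, 85301 and 90776 in Control against 124482, 140309 and 163008 with DCC-2036, mostly KRT8. EPCAM lay between 4524 and 5961 in the 6 libraries, and KRT8, KRT18, CDH1 and CDX2 were also present. By limma, KRT8 (log2 fold change 0.844, adjusted p = 0.00287) and CDH1 (log2 fold change 1.101, adjusted p = 0.000354) were called higher. KRT20 went against the sum, from 64.1, 43.6 and 51.5 in Control to 17.7, 28.01 and 24.57 in DCC-2036. It was called lower (log2 fold change -1.15, adjusted p = 0.00427). CDX1 was at 0 in every library, CEACAM5 reached 0.905 at most and VIL1 4.12 at most. PTPRC, which marks leukocytes, was at 0, and the 4 leukocyte markers together summed to 1.8, 6.2 and 4.6 in Control against 4.2, 7.5 and 5.8 with DCC-2036. The 5 fibroblast markers summed to 435, 407 and 366 in Control against 506, 436 and 545 with DCC-2036, nearly all of it COL1A1. The 3 endothelial markers summed to 14.2, 5.0 and 14.9 in Control against 40.2, 15.4 and 20.3 with DCC-2036, mostly VWF.

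Complex II oxidizes succinate and passes the electrons to ubiquinone. Complex III hands them to cytochrome c, and complex IV delivers them to oxygen, and both pump protons across the inner mitochondrial membrane. Complex V, the ATP synthase, lets the protons flow back through a rotating ring of c subunits and makes ATP in its catalytic head. Each complex is built with the help of assembly factors that are not part of the finished enzyme. Some of those for complexes II, III and IV help to insert heme, copper, flavin or iron-sulfur groups.

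Most subunit genes lay somewhat above Control after DCC-2036, and the assembly factors went in both directions. Of the 62 members, 56 reached 10 in 3 or more libraries and were tested with limma. At an adjusted p under 0.01, 12 were called higher (21.4%) and 5 lower (8.9%), against 19.2% higher and 22.7% lower among all 12725 genes tested. Among the 40 subunits tested, 8 were called higher and 1 lower (2.5%). The share of subunits called higher was thus near that of all genes, and the share called lower was below it. The 16 tested assembly factors, regulators and relatives had 4 calls in each direction. Groups did not overlap for 29 members that were higher and 12 that were lower, 73.2% of those tested, beside 71.1% of all genes. In bulk RNA, fewer cells of a kind and less RNA per cell cannot be told apart.

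The median log2 fold change was 0.24 over the members, 0.29 over the subunits and -0.09 over all genes tested. These medians depend on how libraries are scaled. With libraries scaled to equal totals, the median of all genes moved to -0.28, that of the members to 0.05 and that of the subunits to 0.10, and calls became 8 higher and 6 lower among the members and 1716 higher and 3388 lower among all genes. SDHB, ATP5L, COX16 and COX20 lost their calls with equal totals. The number of calls changed with the libraries kept, and fold changes moved too, with ATP5A1 between 0.607 and 0.686 and COX16 between 0.72 and 1.057 over the 6 libraries left out in turn. Without Control replicate 1, 2 or 3, or without DCC-2036 replicate 2, 3 members were called higher and 3 lower. Calls over all genes fell too, to between 929 and 968 higher and between 1502 and 1650 lower. Without DCC-2036 replicate 1 there were 16 and 5 calls among the members, beside 2717 and 3444 of all genes. Without DCC-2036 replicate 3 there were 12 and 5, beside 2501 and 3198 of all genes. COX10, COX7A2L, SDHAF3, ATP5G1, ATP5SL and SDHAF1 were called in all 15 alternatives run for each gene, and each of the other 11 called members lost its call in at least 4 of them.

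**Figure D1:**
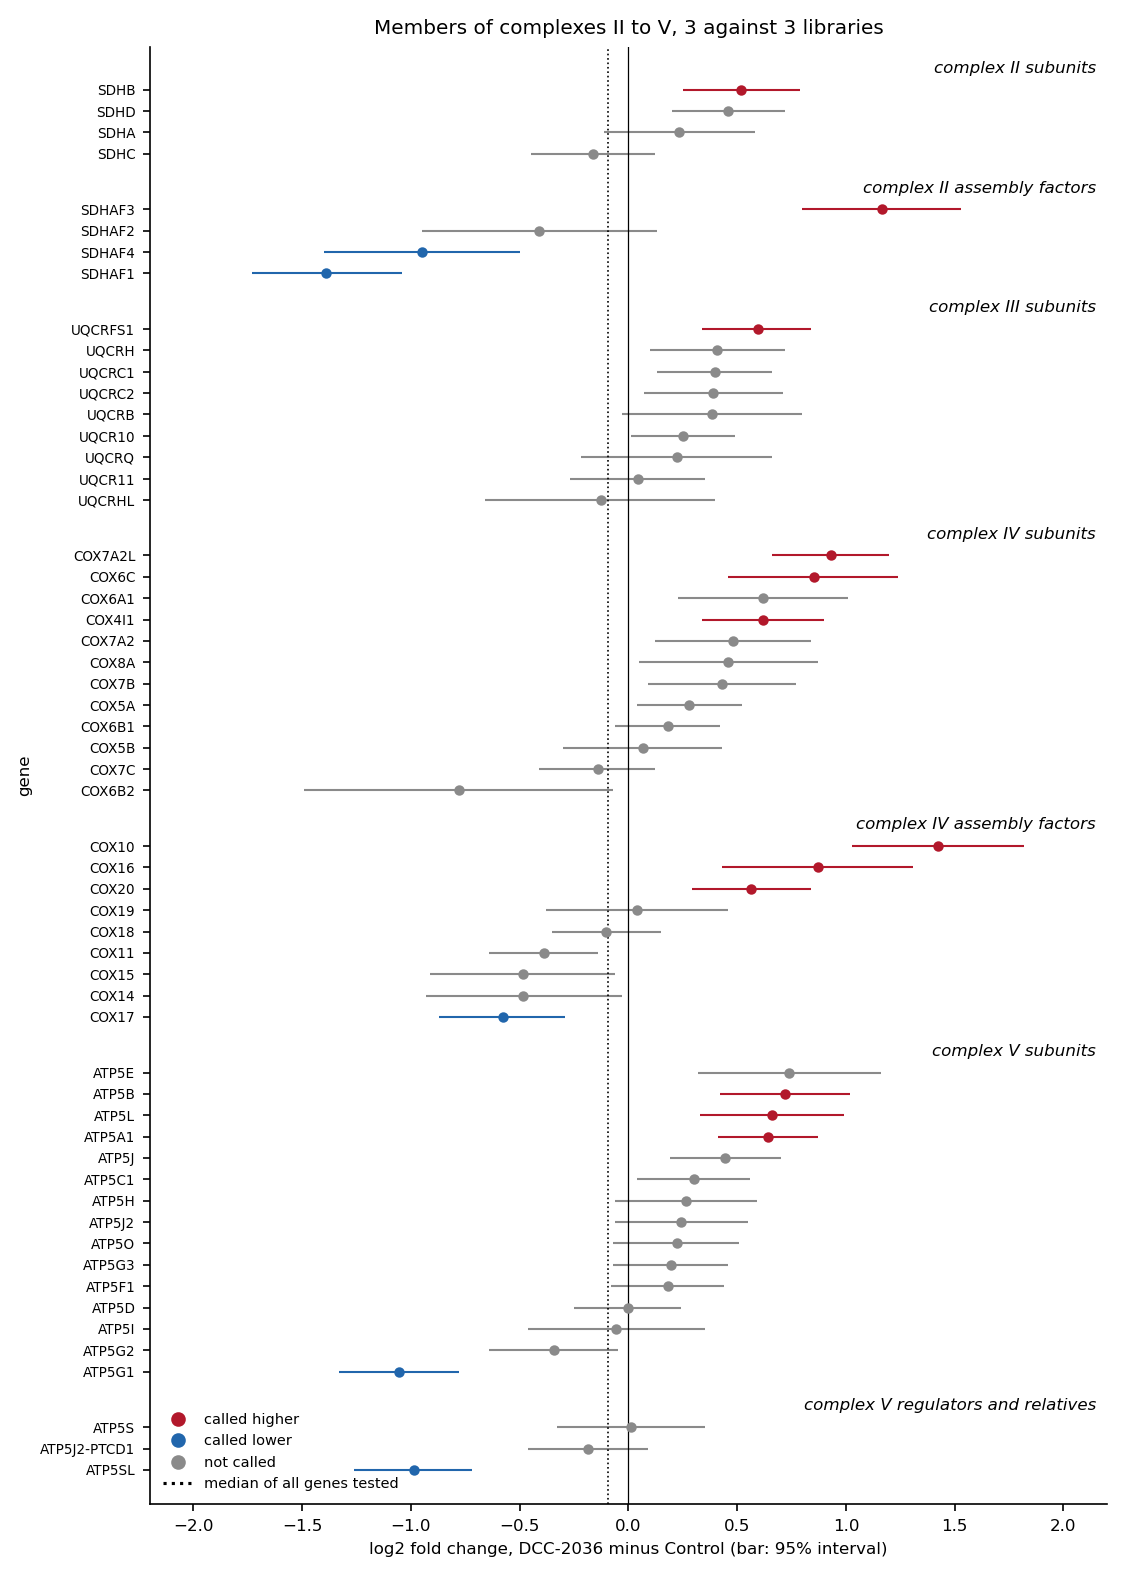
Log2 fold change of each of the 56 tested members (DCC-2036 minus Control, horizontal axis; points with 95% intervals from limma), grouped by class, with the dotted line at the median of all genes tested (-0.09). Of the subunits, 32 lie above 0 and 8 below, and the members span -1.39 (SDHAF1) to 1.42 (COX10); with libraries scaled to equal totals 32 members rather than 38 lie above 0.

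In complex II, the median log2 fold change of the subunit genes was 0.346 (0.157 with equal totals). Of the 4, 1 was called higher (25.0%) and 0 lower, beside 19.2% and 22.7% of all genes. SDHB, the iron-sulfur subunit, read 1962, 2220 and 2109 in Control against 2703, 3149 and 3170 with DCC-2036. Every treated library was above every Control library, and SDHB rose by 0.52 on the log2 scale (SE 0.113, adjusted p = 0.00811, limma). SDHD, a membrane anchor, gave 1417, 1625 and 1525 in Control against 1954, 2083 and 2240 with DCC-2036. Its groups did not overlap either, and its adjusted p of 0.0109 was just past the limit. SDHA, the flavoprotein that oxidizes succinate, read 2852, 2876 and 3079 in Control against 3839, 3762 and 2848 with DCC-2036. DCC-2036 replicate 3 lay below all Control libraries, whereas the other two lay above them (adjusted p = 0.192). SDHC, the other anchor, overlapped between groups, with a log2 fold change of -0.16 (adjusted p = 0.259). SDHD lies next to TIMM8B on the opposite strand, which had a log2 fold change of -1.03, and since the counting is not stated to use strand their reads cannot be told apart where they overlap.

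Of the 4 assembly factors of complex II, 1 was called higher and 2 lower, beside 19.2% and 22.7% of all genes. SDHAF1 and SDHAF3 both help to equip SDHB with its iron-sulfur clusters. SDHAF1 read 217, 221 and 238 in Control against 89.2, 98.3 and 70.8 with DCC-2036. The treated libraries held 38.2% of the Control mean, with no overlap (log2 fold change -1.39, SE 0.143, adjusted p = 0.000626). SDHAF3 went the other way, from 229, 307 and 244 in Control to 522, 575 and 648 in DCC-2036. All 3 treated libraries were above all Control libraries, a 2.24-fold difference of means (log2 fold change 1.16, SE 0.151, adjusted p = 0.00126). SDHAF4, which binds the flavin-bearing SDHA before it joins SDHB, was low in every library, at 31.9, 42.4 and 28.4 in Control against 18.7, 14.2 and 18.7 with DCC-2036. It was called lower (log2 fold change -0.95, adjusted p = 0.00544). SDHAF2, which attaches flavin to SDHA, was not called (log2 fold change -0.41, adjusted p = 0.15). Within a library, the ratio of SDHAF3 to SDHAF1 relative to its Control mean was 0.922, 1.21 and 0.896 in Control against 5.11, 5.10 and 7.99 with DCC-2036. This log2 ratio differed by 2.57 between the groups, a value that scaling of libraries does not touch. This ratio and those below pair genes chosen after their values were seen, so they are descriptions without a test.

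In complex III, 8 of 9 subunit genes had positive log2 fold changes, with a median of 0.383 (0.193 with equal totals). Of the 9, 1 was called higher (11.1%) and 0 lower, beside 19.2% and 22.7% of all genes. UQCRFS1, the Rieske iron-sulfur protein, read 1786, 1914 and 1772 in Control against 2558, 2748 and 2964 with DCC-2036. The groups were well apart, and UQCRFS1 rose by 0.59 on the log2 scale (SE 0.104, adjusted p = 0.0035). The core proteins were not called. UQCRC1 gave 3760, 4133 and 4388 in Control against 5004, 5624 and 5534 with DCC-2036 (log2 fold change 0.40, adjusted p = 0.0194). UQCRC2 gave 2714, 2875 and 2786 in Control against 4082, 3882 and 3078 with DCC-2036 (log2 fold change 0.39, adjusted p = 0.0414). In UQCRC2, as in SDHA, DCC-2036 replicate 3 was the lowest treated library. UQCRH, the hinge protein that binds cytochrome c1, lay at 2145, 2299 and 2373 in Control against 2636, 2995 and 3473 with DCC-2036 (adjusted p = 0.0322). Its near copy UQCRHL was between 18.7 and 33.3 in all libraries and overlapped between groups, and reads of the pair may have been split between them. The remaining subunits UQCRB, UQCRQ, UQCR10 and UQCR11 had adjusted p-values from 0.0684 to 0.785. Cytochrome c1 (CYC1) and cytochrome c (CYCS), which the symbol rule does not take, had log2 fold changes of 0.17 and -0.16 and were not called.

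Of 6 genes that build complex III and lie outside the symbol rule, 1 was called higher and 3 lower, with a median log2 fold change of -0.966 (-1.155 with equal totals). Over all genes, 19.2% and 22.7% were called. TTC19, which clears fragments of the Rieske protein, read 999, 1038 and 1099 in Control against 3131, 3325 and 3641 with DCC-2036. The treated libraries averaged 3.22 times the Control libraries (log2 fold change 1.69, adjusted p = 0.000206). UQCC1, needed for cytochrome b, fell from 710, 847 and 842 to 294, 292 and 277 (log2 fold change -1.47, adjusted p = 0.000287). Its partner UQCC2 fell from 378, 426 and 391 to 133, 115 and 157 (log2 fold change -1.57, adjusted p = 0.000424). LYRM7, a chaperone of the Rieske protein, fell from 417, 460 and 422 to 249, 231 and 213 (log2 fold change -0.91, adjusted p = 0.000935). BCS1L, which inserts the Rieske protein, and UQCC3 had log2 fold changes of -0.335 and -1.02 and were not called (adjusted p = 0.0285 and 0.0143).

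Complex IV had 17 subunit genes in the table, of which 12 were tested. Their median log2 fold change was 0.443 (0.253 with equal totals). By limma, 3 were called higher (25.0%) and 0 lower, beside 19.2% and 22.7% of all genes. At an unadjusted p under 0.05 the counts were 8 and 1, beside 3887 and 4590 of the 12725 genes. COX4I1, the ubiquitous form of subunit 4, read 5717, 6282 and 6415 in Control against 8415, 9658 and 10237 with DCC-2036. It rose by 0.62 on the log2 scale (SE 0.117, adjusted p = 0.00471), without overlap. COX6C read 1292, 1624 and 1519 in Control against 2238, 2660 and 3154 with DCC-2036, a log2 fold change of 0.85 (SE 0.162, adjusted p = 0.00477). COX7A2L, a form of subunit 7A that links complexes III and IV in supercomplexes and is counted here as a subunit, read 1072, 1268 and 1150 in Control against 2060, 2238 and 2358 with DCC-2036. Its treated libraries averaged 1.91 times the Control libraries (log2 fold change 0.93, SE 0.113, adjusted p = 0.001). The subunit it resembles, COX7A2, read 1030, 1261 and 1284 in Control against 1433, 1672 and 1891 with DCC-2036 and was not called (log2 fold change 0.48, adjusted p = 0.0298). The ratio of COX7A2L to COX7A2 within a library was 1.06, 1.03 and 0.916 of its Control mean in Control against 1.47, 1.37 and 1.27 with DCC-2036. These did not overlap (log2 difference 0.45). COX6C shares its locus with VPS13B on the opposite strand, which had a log2 fold change of -1.04, and COX4I1 shares its locus with EMC8, at 0.43.

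The 5 complex IV subunit genes that were not tested are forms known from other tissues. COX6A1 gave 2321, 2786 and 2902 in Control against 3431, 4118 and 4824 with DCC-2036 (log2 fold change 0.62, adjusted p = 0.016), whereas its muscle form COX6A2 was at 0 in all 6 libraries. COX4I2, a form known from lung, read 0.92, 3.64 and 0 in Control against 0 with DCC-2036. COX7A1, the muscle form of subunit 7A, read 0.9, 3.57 and 2.77 in Control against 10.4, 21.4 and 8.52 with DCC-2036. It did not pass the filter and was not tested, although its groups did not overlap. The 4 muscle markers summed to 48.7, 70.6 and 59.0 in Control against 35.5, 70.8 and 52.8 with DCC-2036, mainly DES, with MYH7 at 4.21 or less and CKM overlapping between groups. DES was lower with DCC-2036, at 44.1, 59.2 and 42.2 in Control against 22.9, 35.6 and 38.4, and was not called (log2 fold change -0.588, adjusted p = 0.0626). ACTN2 was low and was not tested, at 0.866, 4.39 and 7.49 in Control against 8.38, 22.5 and 13.0 with DCC-2036. Like COX7A1, ACTN2 was highest in DCC-2036 replicate 2, and the part of muscle genes in COX7A1 was not tested. COX8C was at 0 throughout and COX7B2 did not exceed 1.03. COX6B2, the testis form of subunit 6B, read 26.5, 16.6 and 12.7 in Control against 11.4, 11.9 and 7.24 with DCC-2036. It was the lowest fold change among the tested genes of the class (log2 fold change -0.78) but was not called (adjusted p = 0.057). Leaving out 1 library in turn gave COX6B2 log2 fold changes from -1.006 to -0.504. COX6B1, COX7B and COX8A had log2 fold changes of 0.18, 0.43 and 0.46 and were not called (adjusted p = 0.151, 0.0357 and 0.0533), and COX6B1 went to -0.01 with libraries scaled to equal totals. COX5A, COX5B and COX7C were not called either, with adjusted p-values from 0.0464 to 0.727.

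**Figure D2:**
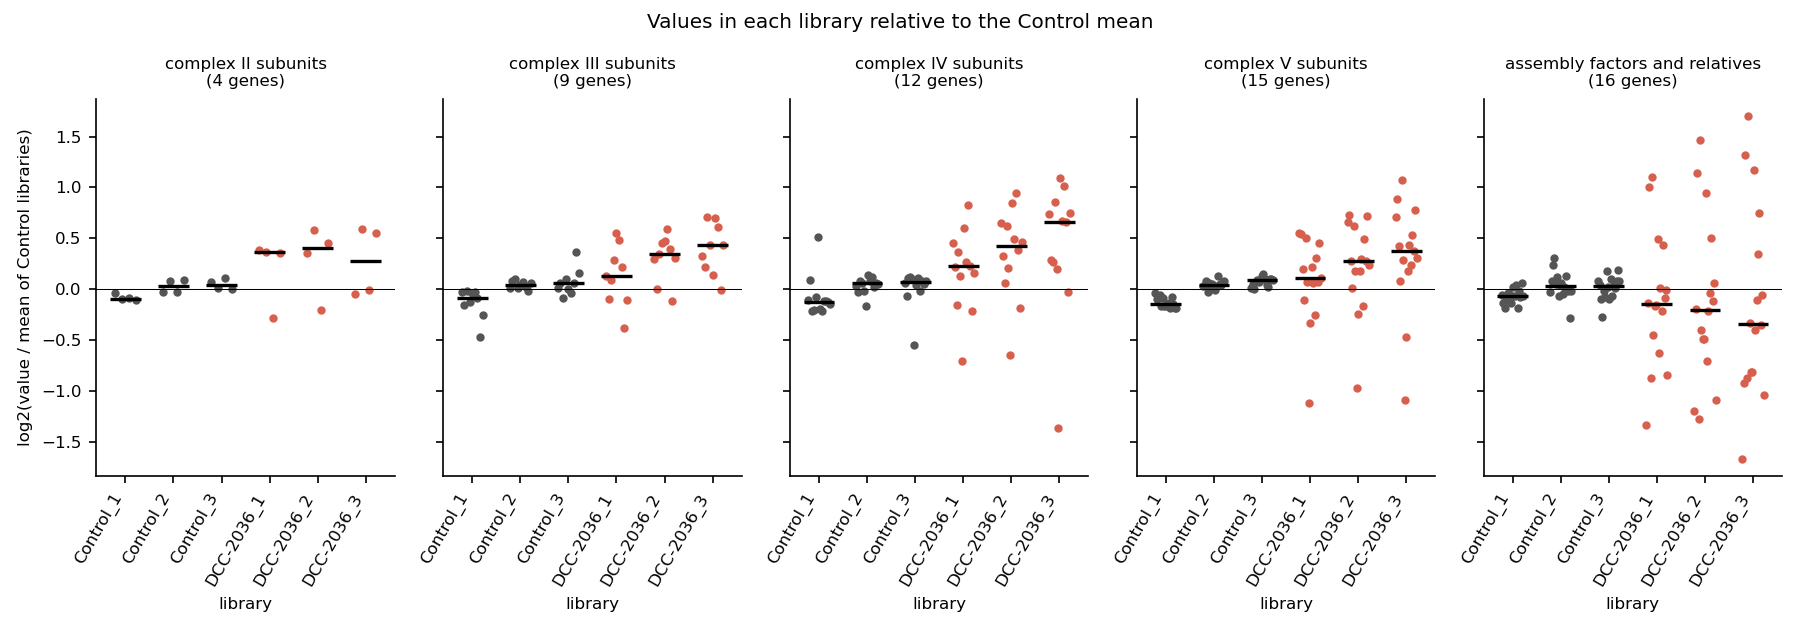
Value of each tested member in each library, as log2 of its ratio to the mean of the Control libraries (vertical axis), for the subunits of each complex and for the assembly factors and relatives; points are genes and black bars their medians. The medians of the subunit classes lie above all Control medians in the DCC-2036 libraries (0.11 to 0.37 for complex V), but with equal totals complex V ranges from 0.00 to 0.11, and complexes II, III and V overlap Control; the assembly factors spread in both directions.

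Of 9 assembly factors of complex IV, 3 were called higher (33.3%) and 1 lower (11.1%), beside 19.2% and 22.7% of all genes. COX10 makes heme O, the precursor of heme A of the active site. It read 578, 613 and 586 in Control against 1275, 1635 and 1928 with DCC-2036. The treated mean was 2.72 times the Control mean, the highest fold change of the tested members (log2 fold change 1.42, SE 0.164, adjusted p = 0.000856). COX17, a copper chaperone of the intermembrane space, went from 635, 644 and 714 in Control to 429, 407 and 501 in DCC-2036. It was called lower at 67.1% of the Control mean (log2 fold change -0.58, adjusted p = 0.00674). The ratio of COX10 to COX17 within a library was 1.02, 1.07 and 0.919 of its Control mean in Control against 3.33, 4.50 and 4.31 with DCC-2036.

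COX16 and COX20 both assist the maturation of the mitochondrially encoded subunit COX2. COX16 read 629, 646 and 578 in Control against 872, 1186 and 1391 with DCC-2036 (log2 fold change 0.87, adjusted p = 0.00691). COX20 read 945, 959 and 968 in Control against 1297, 1360 and 1607 with DCC-2036 (log2 fold change 0.56, adjusted p = 0.00619). Both genes share their loci with others. COX16 is also part of the readthrough gene SYNJ2BP-COX16, which had a log2 fold change of 0.82. COX20 lies opposite HNRNPU, whose mean went from 18008 to 28117 with a log2 fold change of 0.64. Whether reads were shared in these pairs was not tested. The other 5 factors, COX11, COX14, COX15, COX18 and COX19, were not called, with adjusted p-values from 0.0171 to 0.854.

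Among 19 further genes for assembly and expression of complex IV, 5 were called higher and 4 lower, with a median log2 fold change of 0.265 (0.076 with equal totals). These are 26.3% and 21.1%, beside 19.2% and 22.7% of all genes. COA3, which acts with newly made COX1, read 416, 458 and 483 in Control against 104, 79.2 and 96.1 with DCC-2036. The treated libraries held 20.6% of the Control mean (log2 fold change -2.28, adjusted p = 0.000193). COA4 read 1033, 1136 and 1146 in Control against 306, 348 and 364 with DCC-2036 (log2 fold change -1.70, adjusted p = 0.00022). PET100 was also called lower (log2 fold change -1.08, adjusted p = 0.00231). SCO1, which passes copper to COX2, read 980, 1019 and 981 in Control against 1829, 2095 and 2700 with DCC-2036. It was called higher (log2 fold change 1.13, adjusted p = 0.00156), as were CMC2 (0.98, adjusted p = 0.0032) and COA5 (0.67, adjusted p = 0.00768).

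In complex V, 15 subunit genes were tested, 3 were called higher and 1 lower (6.7%), beside 19.2% and 22.7% of all genes, and the median log2 fold change was 0.243 (0.053 with equal totals). Of the 5 genes of the catalytic head, 2 were called higher, and of the 3 genes of the c ring 1 was called lower. ATP5B, the beta subunit that holds the catalytic sites, read 21063, 23269 and 23452 in Control against 32880, 37447 and 41712 with DCC-2036. It rose to 1.65 times the Control mean (log2 fold change 0.72, SE 0.124, adjusted p = 0.0033). ATP5A1, the alpha subunit, read 11956, 12553 and 12357 in Control against 18026, 19421 and 20122 with DCC-2036 (log2 fold change 0.64, SE 0.096, adjusted p = 0.00207). Neither gene showed any overlap between groups. ATP5E, the epsilon subunit, read 1457, 1704 and 1730 in Control against 2304, 2516 and 3438 with DCC-2036, and it was just past the limit, with the widest spread of the 3 (log2 fold change 0.74, SE 0.175, adjusted p = 0.0111). The summed value of the 5 head genes was 39148, 42545 and 42575 in Control against 58355, 64879 and 71209 with DCC-2036, 1.57 times higher in the mean. As a share of the sum over all symbols it was 1.37 times higher. ATP5A1 lies opposite HAUS1, which had a log2 fold change of -1.18, and ATP5E opposite TUBB1, at 1.06.

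The c subunit is encoded by 3 genes whose proteins are identical once their import sequences are removed, and the 3 did not change alike. ATP5G1 read 1119, 1302 and 1337 in Control against 576, 640 and 588 with DCC-2036. Its highest treated library was below its lowest Control library by a wide margin, at 48.0% of the Control mean (log2 fold change -1.06, SE 0.114, adjusted p = 0.000706). ATP5G2 read 1681, 1920 and 2071 in Control against 1498, 1596 and 1368 with DCC-2036 and was not called (log2 fold change -0.34, adjusted p = 0.0471). ATP5G3 read 3458, 3813 and 4260 in Control against 4475, 4347 and 4339 with DCC-2036 (log2 fold change 0.20, adjusted p = 0.168). The treated libraries of ATP5G3 lay just above the Control libraries and close together, but with equal totals the log2 fold change was 0.006. Within a library, ATP5G1 relative to ATP5G3 was 0.992, 1.05 and 0.963 of its Control mean in Control against 0.394, 0.451 and 0.415 with DCC-2036. Relative to ATP5B it was 0.96, 1.01 and 1.03 in Control against 0.316, 0.309 and 0.255 with DCC-2036. The log2 differences were -1.25 and -1.78. The summed value of the 3 genes was 6258, 7036 and 7668 in Control against 6549, 6583 and 6294 with DCC-2036, so the groups overlapped in the sum. As a share of the sum over all symbols it was 0.038%, 0.042% and 0.045% in Control against 0.036%, 0.034% and 0.031% with DCC-2036, which did not overlap, with means at a ratio of 0.815. ATP5G1 lies on chromosome 17 at 48892765 to 48895871 on the plus strand (GRCh38, GENCODE 29), and its other listed transcript gave a log2 ratio of -1.08, with reads shared between both.

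**Figure D3:**
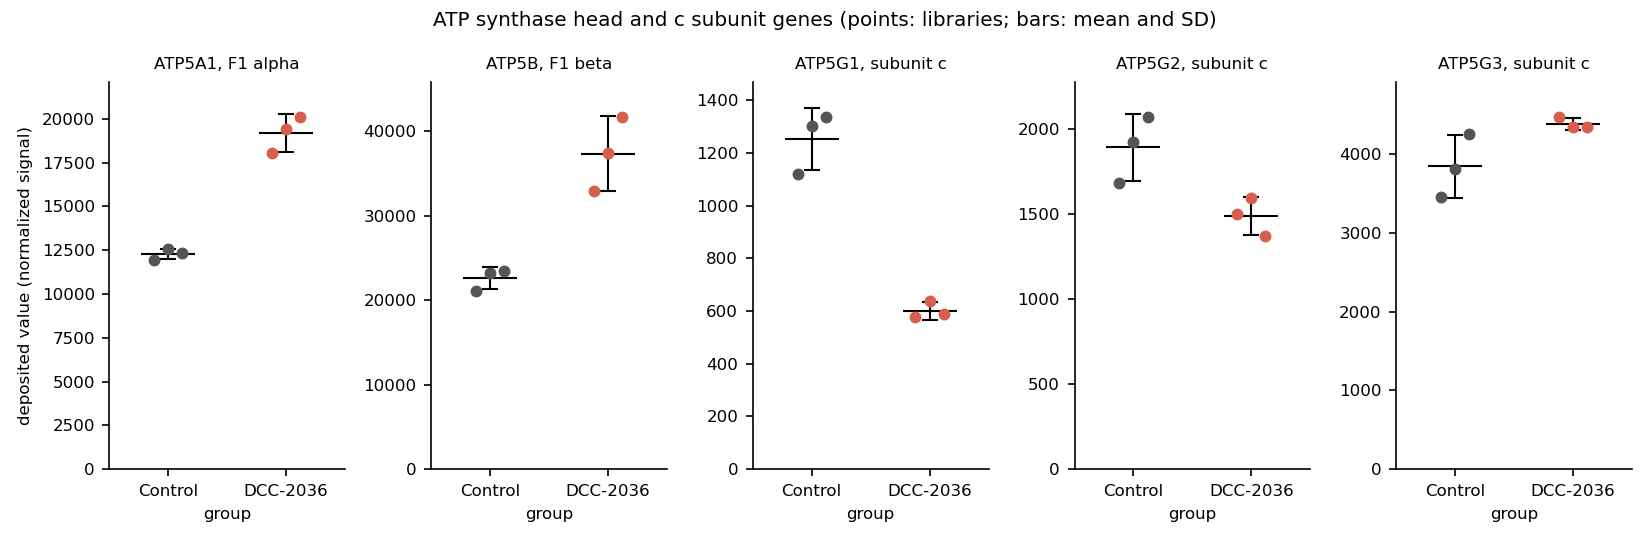
Deposited values (normalized signal, vertical axes from 0) of ATP5A1, ATP5B and the 3 c subunit genes in the 3 Control and 3 DCC-2036 libraries; points are libraries and bars the mean and SD. ATP5A1 and ATP5B are higher in DCC-2036, ATP5G1 falls to 576 to 640 from 1119 to 1337, and ATP5G2 and ATP5G3, which were not called, lie nearer to Control.

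The 4 genes of the peripheral stalk, which keeps the head from turning, gave 0.245 as their median log2 fold change (0.055 with equal totals). By limma, 0 of them were called, beside 19.2% higher and 22.7% lower of all genes. At an unadjusted p under 0.05, 1 was higher and 0 lower, beside 3887 and 4590 of the 12725 genes. The closest was ATP5J, coupling factor 6, at 1080, 1173 and 1154 in Control against 1407, 1603 and 1642 with DCC-2036 (log2 fold change 0.45, adjusted p = 0.0116). With an adjusted p under 0.05, ATP5J would have been among 23 members called higher, with 7 lower, beside 3630 and 4290 of all genes. ATP5L, subunit g of the membrane part, read 1585, 1884 and 1929 in Control against 2473, 2971 and 3092 with DCC-2036. It was called higher (log2 fold change 0.66, SE 0.137, adjusted p = 0.00663). The subunits not yet named here, ATP5C1, ATP5D, ATP5F1, ATP5H, ATP5I, ATP5J2 and ATP5O, were not called, with adjusted p-values from 0.0485 to 0.985. ATP5L2, a relative of ATP5L, was at 0 in Control, read 1.05, 0.0342 and 4.47 in DCC-2036, and was not tested.

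ATP5SL carries the prefix of complex V but is known as a factor for the membrane arm of complex I. It read 1165, 1206 and 1290 in Control against 682, 573 and 595 with DCC-2036. The groups were far apart (log2 fold change -0.99, SE 0.112, adjusted p = 0.000815), and all 11 transcripts listed under this symbol had negative log2 ratios, the weakest being -0.51. ATP5S, factor B of the synthase, stayed between 39.2 and 54.4 in all libraries (log2 fold change 0.01, adjusted p = 0.955, and -0.18 with equal totals). The readthrough gene ATP5J2-PTCD1 had a log2 fold change of -0.18 and was not called. Of 25 members with more than 1 transcript in the table, 23 had the same sign in every transcript, the exceptions being ATP5D and ATP5S, and transcripts of 1 gene share reads.

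Among 7 further genes for assembly and regulation of complex V, 2 were called higher (28.6%) and 1 lower (14.3%), beside 19.2% and 22.7% of all genes, and the median log2 fold change of 0.135 became -0.055 with equal totals. ATPAF2, a chaperone of the alpha subunit, read 401, 449 and 470 in Control against 1083, 1473 and 1553 with DCC-2036. The treated mean was 3.11 times the Control mean (log2 fold change 1.62, adjusted p = 0.000601). TMEM70, which helps to assemble the c ring, read 1131, 1075 and 935 in Control against 345, 389 and 397 with DCC-2036 (log2 fold change -1.47, adjusted p = 0.000326). ATPAF1, the chaperone of the beta subunit, overlapped between groups and was not called (log2 fold change 0.18, adjusted p = 0.272). C14orf2, a small proteolipid of the synthase, was called higher (log2 fold change 0.83, adjusted p = 0.00179).

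The median absolute log2 fold change was 0.39 over the 40 subunits, 0.63 over 45 genes listed for assembly and related roles inside and outside the symbol rule (C14orf2, USMG5 and NDUFA4 among them are themselves known as parts of the complexes), and 0.60 over all genes tested. A log2 fold change of 1 or more in either direction was found for 2.5% of the subunits, which was ATP5G1 alone, for 28.9% of the 45 and for 26.9% of all genes. Of the 45, 12 were called higher and 11 lower, together 51.1%, beside 41.9% of all genes. With libraries scaled to equal totals the medians were 0.25 and 0.67. This difference between lists was not tested, and the values of the 45 were close to those of all genes.

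**Figure D4:**
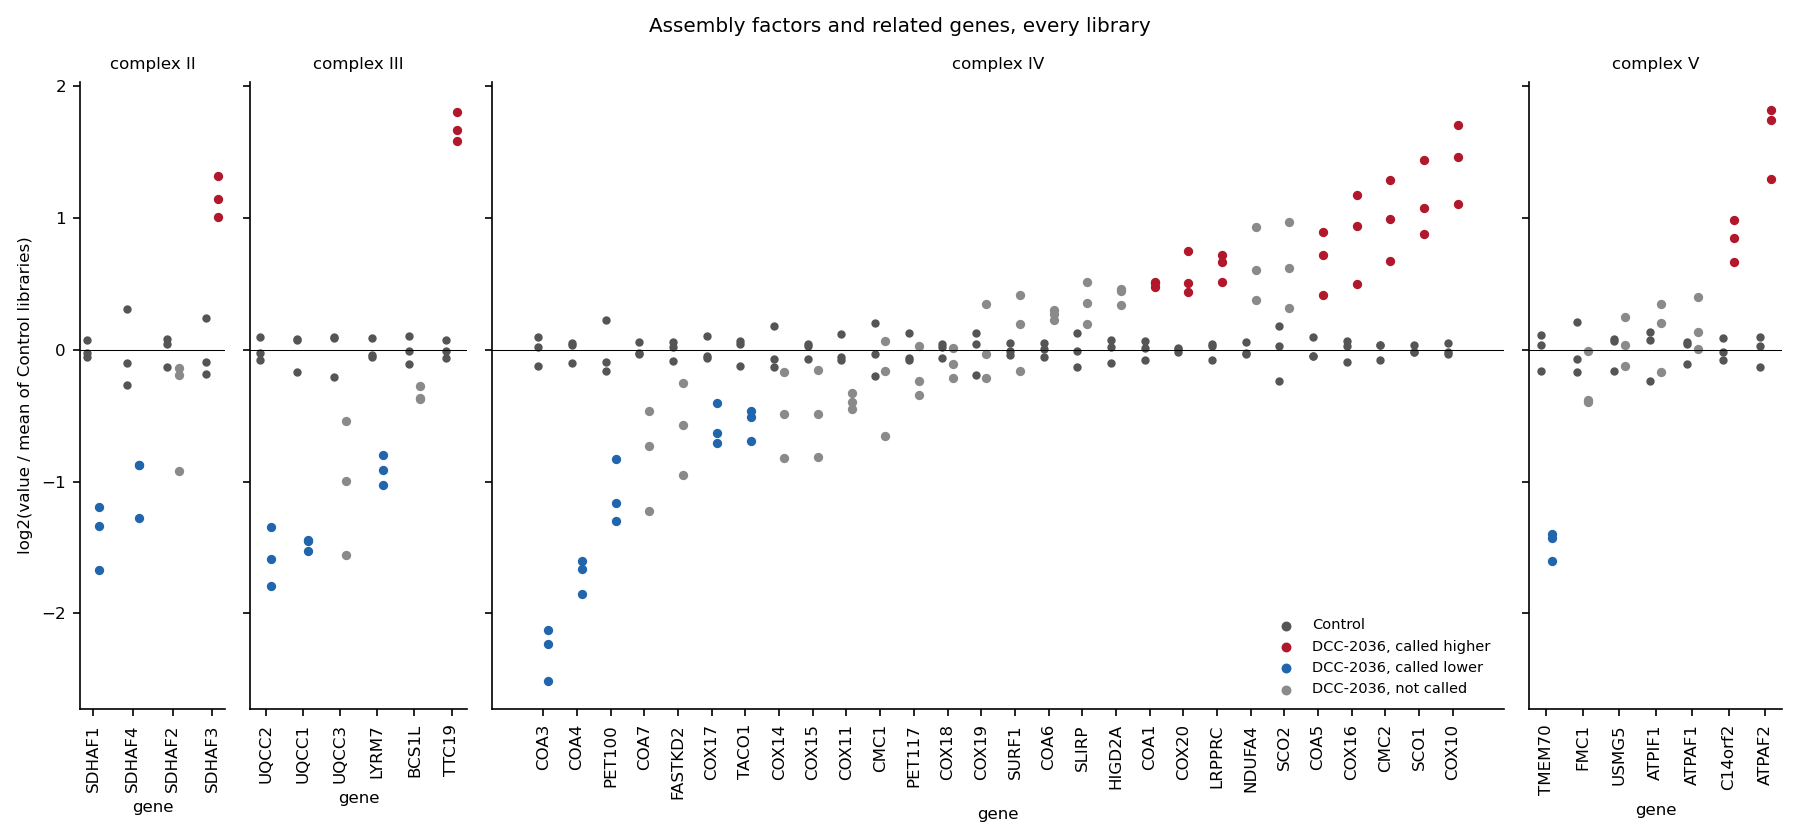
Value of each assembly factor or related protein in every library, as log2 of its ratio to the Control mean (vertical axis), for complexes II, III, IV and V; gray points on the left of each gene are Control libraries and points on the right DCC-2036 libraries, colored by call. SDHAF1, UQCC1, UQCC2, COA3, COA4 and TMEM70 lie far below Control, and SDHAF3, TTC19, COX10, SCO1 and ATPAF2 far above.

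The treated libraries differed among themselves. Of the 40 subunits, 31 had their highest treated value in DCC-2036 replicate 3, 6 in replicate 2 and 3 in replicate 1. Over all genes tested, 5376 of 12725 were highest in replicate 3. Replicate 3 also had the highest total, and after scaling to equal totals 24 of the 40 subunits were still highest there, beside 4144 of all genes. The summed value of all subunits was 100820, 111210 and 112497 in Control against 136439, 151377 and 162421 with DCC-2036. As a share of the sum over all symbols this was 0.617%, 0.665% and 0.662% in Control against 0.760%, 0.792% and 0.809% with DCC-2036. The shares did not overlap, and their means differed 1.21-fold.

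Promoter sequences were compared because subunit genes of the different complexes mostly had fold changes of the same sign. The search took all members, with assembly factors and untested genes such as COX8C among them. Its shares are therefore not those of the subunits alone. RefSeq windows (GRCh38.p14) of 250 bases before to 50 after the start were matched for 48 of the 62 members and for 10372 tested genes, and were searched on both strands, without a check for overlap between motifs. The NRF1 motif, GCGCA and GCGC with any 1 base between them, was in 29.2% of the members' windows and 11.8% of all. The GABPA motif CCGGAAGT was in 22.9% and 8.8%, the YY1 motif AAGATGGCG in 8.3% and 4.0%, and the ESRRA motif TCAAGGTCA in 2.1% and 0.2%. The SP1 motif GGGGCGGGG was in 12.5% of the members' windows and 28.7% of all. The median log2 fold change of tested members with and without a motif was 0.23 and 0.33 for NRF1, 0.22 and 0.29 for GABPA, 0.48 and 0.23 for YY1 and 0.58 and 0.25 for SP1, with 13, 11, 4 and 6 tested members that have the motif, and 1 member with the ESRRA motif had 0.46. The windows below are from a gene called lower (COX17), one not called (SDHA) and genes called higher (COX10 and COX20), with the match to the NRF1, NRF1, GABPA and SP1 motif in capitals, read on the strand of the gene. They lie before the annotated gene start, at chr3:119677493-119677542 on the minus strand, and at chr5:218134-218183, chr17:14069365-14069412 and chr1:244835257-244835305 on the plus strand. Each is shown with 1 match, and the windows searched held others. COX17 also had a GABPA match, COX10 a YY1 and an SP1 match, and SDHA another NRF1 match. The NRF1 motif was also found for SDHAF3 and UQCRFS1, called higher, and for SDHAF4, called lower.
COX17: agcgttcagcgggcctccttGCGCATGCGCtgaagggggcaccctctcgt
SDHA: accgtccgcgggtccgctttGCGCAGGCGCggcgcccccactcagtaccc
COX10: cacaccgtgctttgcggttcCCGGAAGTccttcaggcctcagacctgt
COX20: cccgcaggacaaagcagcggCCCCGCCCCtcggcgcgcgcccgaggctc

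Of 11 regulators of respiratory genes tested, 2 were called higher and 2 lower, 18.2% each, near the 19.2% and 22.7% of all genes. PPARGC1B, a coactivator of mitochondrial genes, read 440, 383 and 434 in Control against 795, 873 and 867 with DCC-2036 (log2 fold change 1.01, adjusted p = 0.00066). ESRRA, a nuclear receptor that works with it, read 1312, 1399 and 1485 in Control against 617, 537 and 481 with DCC-2036 (log2 fold change -1.36, adjusted p = 0.000457). These partners therefore changed in opposite directions, without overlap. TFB2M, a factor for transcription of mitochondrial DNA, was called higher (0.83, adjusted p = 0.00933), and TFB1M, which methylates ribosomal RNA in mitochondria, was called lower (-0.67, adjusted p = 0.00928).

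Other genes of mitochondria were compared in the same way. Among 48 complex I genes, taken by symbols that start with NDUF, 17 were called higher and 6 lower, with a median log2 fold change of 0.296 (0.106 with equal totals). Among 78 genes of mitochondrial ribosomal proteins, 9 were called higher and 19 lower, with a median of -0.081 (-0.271 with equal totals). These are 35.4% and 12.5% of the complex I genes and 11.5% and 24.4% of the ribosomal ones, beside 19.2% and 22.7% of all genes. Of 9 reference genes of the membranes and matrix, 4 were called higher (44.4%) and 3 lower (33.3%). TOMM20, an import receptor, read 4314, 4789 and 4695 in Control against 11691, 13346 and 16322 with DCC-2036 (log2 fold change 1.57, adjusted p = 0.000457). TOMM40, the import channel, read 4439, 5052 and 5383 in Control against 2690, 2354 and 1971 with DCC-2036 (log2 fold change -1.09, adjusted p = 0.0015). The outer membrane channels VDAC1 and VDAC2 were called higher (0.65 and 1.13, adjusted p = 0.00221 and 0.0012), and the receptor TOMM22 and the chaperone HSPD1 lower (-0.71 and -0.57, adjusted p = 0.00147 and 0.00475). Outside the symbol rule, ATPAF2, COA3, COA4, LYRM7, SCO1, TMEM70, TTC19, UQCC1, UQCC2, ESRRA, PPARGC1B, TOMM20 and VDAC2 were called in all 15 alternatives. Each other gene outside the rule that was followed through the alternatives and called lost its call in at least 1. The cell markers KRT8, CDH1 and KRT20 were not followed.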

How the data were processed

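RNA of 3 Control and 3 DCC-2036 libraries was compared, grouped by sample titles. The authors deposited a normalized signal per transcript, whose totals differ between libraries; aligner, genome build and use of strand are not given in the sources used here. Values are not whole numbers, so reads and depth per library are unknown and no interval for counting error is given. The authors' log2 fold change, p-value and q-value columns were not used; 0 other columns of values per sample exist. For the 12725 symbols that reached 10 in 3 or more libraries, limma 3.58.1 (R 4.3.3) was fitted without covariates on log2(value + 1), a scale that understates changes of low genes, with Benjamini-Hochberg adjustment over all genes, after testing on simulated data. Tables were made with Python 3.11.15 (numpy 2.4.6, pandas 2.3.3); figures used matplotlib 3.10.9. Positions and overlapping genes are from GENCODE 29. Members and lists were chosen with earlier results of these data known. Genes were named where called (of lists outside the symbol rule, the 3 highest and 3 lowest), at the ends of a class, in a paralog group, untested, or as cell markers; SDHA, SDHD, UQCRC1, UQCRC2, ATP5J, BCS1L, UQCC3, ATPAF1, USMG5, NDUFA4, pairs in ratios and genes named for overlap were chosen after their values were seen. Scaling, filter, pseudocount, transcript choice, variance trend, limits, a replicate block and left-out libraries were varied.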

Additional observations from a re-analysis of the deposited data

How the results depend on the processing

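Of 58 genes followed, 28 kept direction and call in every alternative run for each gene. The other limits on adjusted p and on fold size were not run for each gene. Sign changed in at least 1 alternative for 3 genes, and all 3 were not called. Of the 40 called genes followed, 19 kept their call in all alternatives run for each gene and 0 changed sign. Members called higher and lower were 12 and 5, beside 2442 and 2887 of all genes. Without a filter on low values they became 6 and 3, beside 1749 and 2154 of 16667 genes. At an adjusted p under 0.05 they were 23 and 7, beside 3630 and 4290 of all genes. They were 2 and 2 where the adjusted p was under 0.01 and the log2 fold change reached 1 in size. A change of that size, called or not, was found for 7.1% of the members tested, beside 26.9% of all genes. The labels number replicates 1 to 3 in both groups, but same-numbered libraries did not deviate together (correlations 0.081, -0.035 and -0.003). These correlations cannot decide whether the numbers pair samples, since pairs need not deviate together and the DCC-2036 columns differ in form from Control. With the number as a replicate block, calls were 6 and 3 among the members and 1202 and 1909 among all genes. Leaving out 1 library gave 3 (without Control replicate 1, among others) to 16 (without DCC-2036 replicate 1) members called higher. Called lower were 3 to 5, with fewer libraries tested. Over all genes, 929 to 2717 were then called higher and 1502 to 3444 lower. With equal totals, medians of subunits were 0.16 (complex II), 0.19 (III), 0.25 (IV) and 0.053 (V); with median-of-ratios scaling complex II was 0.43. Leaving out 1 library gave 0.22 to 0.41 for complex III. With equal totals, 32 members rather than 38 had positive fold changes; of the genes followed, ATP5S (-0.18) and COX6B1 (-0.008) turned sign. Leaving out 1 library gave -0.124 to 0.11 for ATP5S and -0.33 to 0.07 for UQCRHL. The cause was not tested. All alternatives gave values, except that COX6B2 was not tested with a value of at least 10 required in every library. Depth is unknown, so counting error could not be set apart.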
